A study of Mus musculus with 6 samples.

Results

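The mitochondrial carrier genes of the Slc25 family were examined in the C2C12 myoblast model of myotonic dystrophy type 1 (DM1). A gene was taken as a member when its name in the deposited tables began with Slc25a and a digit, and 1 gene whose name holds "-ps" was left out. This gave 47 of the 55421 genes in the tables, and all 47 are protein-coding genes with the same span in the GENCODE M21 annotation of GRCm38. No measured value chose a member, but the family was put forward with results of the same comparison known, so the counts of changed members are a description.

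The mouse myoblast line C2C12 forms multinucleated myotubes by cell fusion when it differentiates. Cells of the normal group (CUG5) were stably transfected with the GFP-CUG5 plasmid, which carries 5 repeats, and cells of the DM1 group (CUG200) with the GFP-CUG200 plasmid, which carries 200 repeats. Both groups carry GFP from a plasmid, were selected with G418 and were collected at differentiation day 4, and each group had 3 libraries of total RNA. The 3 libraries of a group are called biological replicates in the sources, which do not say whether they came from separate transfections or cultures, and the p-values measure only the spread between these libraries.

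Carriers of this family sit mostly in the inner mitochondrial membrane and exchange nucleotides, phosphate, carboxylates, amino acids, cofactors and metal ions between the matrix and the cytosol. Each protein is built of repeats of paired membrane helices, and the repeats typically carry a signature, not intact in every repeat or member, in which a proline is followed, after any residue, by an acidic residue and, after a further pair of residues, by a basic residue. In skeletal muscle the ADP/ATP exchangers and the phosphate carrier supply ATP synthase with its substrates and deliver ATP to the myofibrils.

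The 30-base coding windows around the first signature codons are shown for the carriers on which the comparison turns and for their close copies, since near-identical copies would make reads hard to assign. The windows come from GENCODE M21 on GRCm38, run 5′ to 3′ on the coding strand, and carry the 6 signature codons in capitals. The first set holds the ATP-Mg/phosphate carriers and *Slc25a54*, which lies beside *Slc25a24*.
Slc25a23 (chr17:57053790-57053819, minus strand): acagctCCTCTGGACCGACTCAAGgtattc
Slc25a24 (chr3:109156970-109156999, plus strand): accgctCCTTTGGATCGCCTCAAGgtcatg
Slc25a25 (chr2:32419054-32419083, minus strand): actgccCCCCTGGACAGACTGAAGgtgctc
Slc25a41 (chr17:57039824-57039853, minus strand): acagcaCCTCTGGACAGAGCCAGGgtgtac
Slc25a54 (chr3:109102820-109102849, plus strand): acggcaCCTTTGGAACGCTTGAAAgtcacg

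The second set holds the ADP/ATP exchangers and the pyrimidine nucleotide carriers.
Slc25a4 (chr8:46210818-46210847, minus strand): gtcgccCCGATCGAGAGGGTCAAActgctg
Slc25a5 (chrX:36795806-36795835, plus strand): gtagcaCCCATCGAGAGGGTCAAGctgctg
Slc25a33 (chr4:149762489-149762518, minus strand): acatgtCCACTAGAAGTCATTAAGacgcga
Slc25a36 (chr9:97100182-97100211, minus strand): acatgtCCACTGGAAGTTGTCAAAacacgg

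The third set holds 3 carriers of other classes that passed the test. The first match of *Slc25a44* lies late in the protein, at residue 242 of 314, against residue 38 in *Slc25a27* and residue 29 in *Slc25a17*.
Slc25a27 (chr17:43664234-43664263, minus strand): acctttCCCCTCGATCTCACAAAAacccga
Slc25a17 (chr15:81344108-81344137, minus strand): ttcttcCCCTTGGATACTGCTAGActtcgg
Slc25a44 (chr3:88415994-88416023, minus strand): accaatCCCATGGATGTCATCAGAacccgt

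The windows of *Slc25a37* and *Slc25a39* span an intron and are not shown. *Slc25a46*, which acts on the outer membrane, *Slc25a51*, the carrier of NAD+, and *Slc25a53* held 0 matches to the signature. Among the translated proteins, *Slc25a4* and *Slc25a5* were 89.6% identical over 298 aligned residues. *Slc25a12* and *Slc25a13* were 77.3% identical, and *Slc25a37* and *Slc25a28* were 67.4% identical. *Slc25a23* was 66.0% identical to *Slc25a25* and 61.5% identical to *Slc25a24*. The pyrimidine nucleotide pair *Slc25a33* and *Slc25a36* was 62.3% identical, and the glutathione pair *Slc25a39* and *Slc25a40* was 52.7% identical.

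Carriers were measured at a depth of 61707889 to 80957325 counts per library. A count stands for 75 aligned bases, and the commonest low count was 4, which is taken as 1 sequenced fragment. Genes of the mitochondrial genome took 8.90% to 13.5% of the counts, and the carriers took 0.206% to 0.231%. The filter on low counts kept 42 of the 47 carriers, and 37 carriers had more than 100 counts in every library.

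Most carriers differed little between the groups. By the quasi-likelihood test of edgeR, adjusted after Benjamini and Hochberg over the 19005 genes tested, 3 carriers rose and 5 fell in the DM1 group at an adjusted p under 0.05. Those that fell were *Slc25a23*, *Slc25a44*, *Slc25a24*, *Slc25a39* and *Slc25a33*, and those that rose were *Slc25a27*, *Slc25a17* and *Slc25a37*. Of all genes tested, 7.13% rose and 8.73% fell, 15.9% in either direction, and the 19.0% of carriers that passed lay near that background. The median log2 fold change was -0.06 over the 42 carriers and 0.02 over all genes, and 34 of the 42 carriers lay within 0.5 on the log2 scale. Without normal library 1 or 2, 0 carriers rose and 2 fell, and without normal library 3 or DM1 library 2, 0 rose and 1 fell. In those 4 fits 5.18% to 7.25% of all genes passed.

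No carrier rose past both cutoffs, an adjusted p under 0.05 and a log2 fold change over 1, by edgeR or by DESeq2, and 0 carriers rose by that much at an unadjusted p under 0.05, against 1.36% of all genes past both cutoffs in that direction. *Slc25a23* was the only carrier that fell past both by edgeR, against 0.816% of all genes, and without DM1 library 1 *Slc25a51* did so too. The groups did not overlap in CPM (counts scaled by TMM to a common library total) for 19 of the 42 carriers, 8 above and 11 below the normal group, against 37.2% of all genes. In TPM, which is per transcript length, they did not overlap for 14 carriers, 4 above and 10 below, against 30.6% of all genes.

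**Figure D1:**
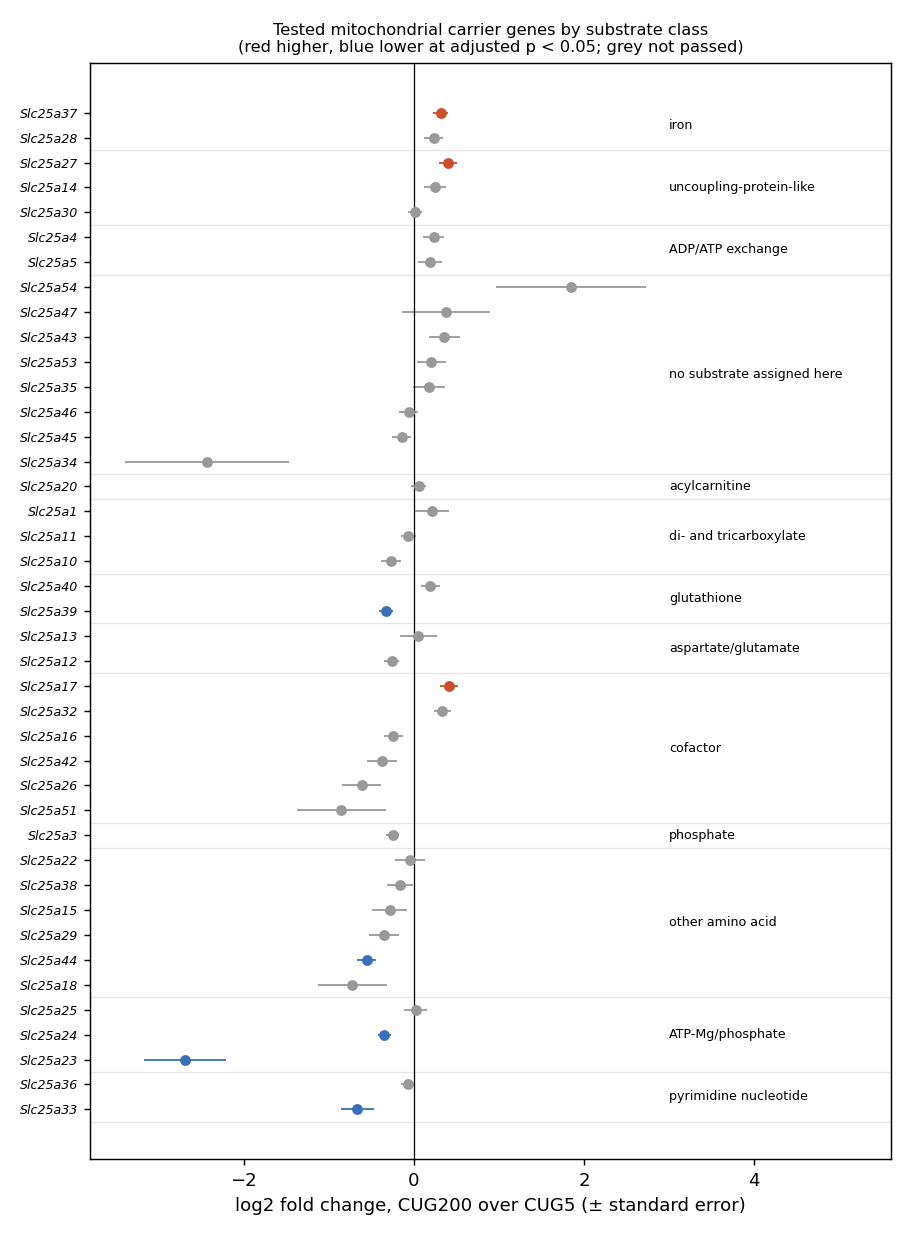
Log2 fold change of CUG200 over CUG5 (x axis) for the tested carriers that are reported, grouped by substrate class; points are estimates and bars are standard errors from edgeR. The 3 carriers that rose (red) lie between 0.32 and 0.41, and Slc25a23 lies at -2.69, apart from the other 4 that fell (blue).

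Since the libraries are bulk RNA, fewer cells of a type and less RNA per cell cannot be told apart. The myotube markers moved with the groups. Of 12 myotube markers, 10 fell and the other two did not pass, with a median log2 fold change of -0.76. Of the other two, *Mymk* had a log2 fold change of -0.55 (edgeR, adjusted p = 0.304) and *Mymx* of 0.23 (edgeR, adjusted p = 0.0732), the 1 marker that was higher at an unadjusted p under 0.05. The summed CPM of the 12 markers ran from 11648 to 12733 in the normal libraries and from 6066 to 7985 in the DM1 libraries. Of 6 markers of undifferentiated myoblasts 0 passed by edgeR, and 1 was lower by DESeq2 and at an unadjusted p under 0.05. Of the 3 tested fibroblast-like markers, *Col1a1*, a collagen chain, rose by 1.06 on the log2 scale and *Col3a1* and *Pdgfra* did not pass. The markers of other cell types *Ptprc*, *Adipoq*, *Alb* and *Epcam* had 0 counts in every library, and the whole list of 6 summed to at most 0.372 CPM. The part of the myotube content in the carrier values was not tested.

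The family was dominated by a few carriers. The top 4 by mean TPM were *Slc25a5*, *Slc25a3*, *Slc25a4* and *Slc25a39*, and they took 59.7% to 63.8% of the family's summed TPM in a library. The values of *Slc25a5* and *Slc25a3* overlapped in TPM, so their order is not settled by these libraries. Next came *Slc25a17*, *Slc25a11*, the oxoglutarate carrier, *Slc25a37*, *Slc25a1*, the citrate carrier, and *Slc25a24*, with mean TPM values in the normal group between 57.5 and 76.0. At the other end, *Slc25a21*, *Slc25a31* and *Slc25a41* had 0 counts in every library, where the limit a count of 0 allows, 3 fragments or 12 counts, is worth 0.148 to 0.194 CPM. This limit covers counting error only.

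**Figure D2:**
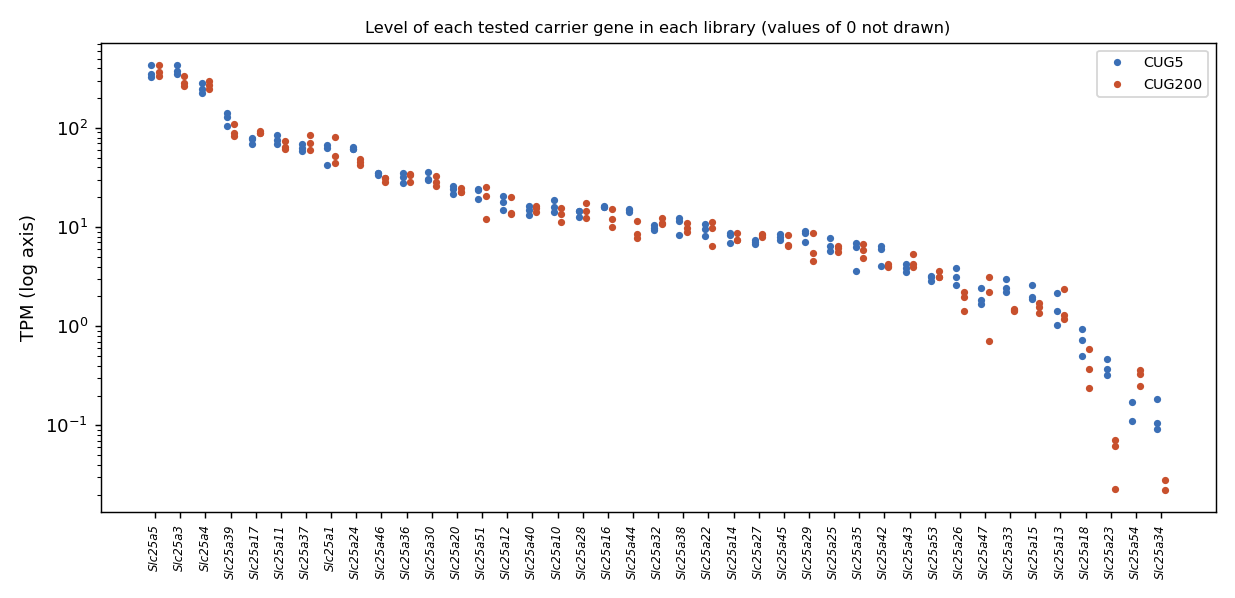
TPM of the tested carriers that are reported, in each library (y axis, log scale; values of 0 not drawn), ordered by mean TPM, with CUG5 in blue and CUG200 in red. Slc25a5, Slc25a3 and Slc25a4 lie above 200 TPM in all libraries, and Slc25a23 and Slc25a34 are lower in every red point than in any blue point.

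The ADP/ATP exchangers and the phosphate carrier bring ADP and phosphate into the matrix. *Slc25a4*, the exchanger typical of heart and skeletal muscle, was at 306, 288 and 268 CPM in normal libraries 1, 2 and 3 and at 402, 312 and 301 CPM in DM1 libraries 1, 2 and 3. The groups overlapped, since DM1 library 3 lay below normal library 1. With a log2 fold change of 0.24 ± 0.12 (SE) it did not pass (edgeR, adjusted p = 0.235). *Slc25a5*, the more widely expressed exchanger, was at 293, 264 and 250 CPM in the normal group and at 379, 273 and 265 CPM in the DM1 group. These values overlapped too (log2 fold change 0.19 ± 0.14, edgeR, adjusted p = 0.428). Without DM1 library 1, the highest library for both genes, neither passed, and their log2 fold changes were 0.11 and 0.02. *Slc25a31*, the exchanger of the testis, had 0 counts.

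*Slc25a3*, the phosphate carrier, was at 398, 359 and 385 CPM in the normal group and at 318, 317 and 326 CPM in the DM1 group. The groups did not overlap in CPM or in TPM, where the means were 388 ± 39.8 and 294 ± 35.1 (SD, n = 3 each). The log2 fold change of -0.25 ± 0.08 did not pass (edgeR, adjusted p = 0.0674), whereas DESeq2 gave an adjusted p of 0.0309.

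The ATP-Mg/phosphate carriers exchange ATP-Mg for phosphate under the control of calcium and set the size of the adenine nucleotide pool of the matrix. *Slc25a23* (chr17:57043711-57059863, minus strand) had 51, 47 and 66 counts in normal libraries 1, 2 and 3 and 5, 12 and 8 counts in the DM1 libraries. Every DM1 library lay below every normal library. It fell by 2.69 on the log2 scale (SE 0.478, edgeR, adjusted p = 0.00891). These are few fragments, about 41 in the normal and 6.25 in the DM1 group when counts are divided by 4, so that, relative to the library totals, the level in the DM1 group was 15.1% of the normal level, with a 95% Clopper-Pearson interval of 5.38% to 35.4% that covers counting error only. *Slc25a23* passed in each of the 6 fits that left out 1 library, with log2 fold changes from -3.03 to -2.39 and adjusted p values from 0.0148 to 0.0492. In length-scaled terms it was a minor carrier, at 0.386 ± 0.0762 TPM in the normal and 0.0520 ± 0.0260 TPM in the DM1 group. These TPM values are small beside the pseudocounts used for limma, where the log2 difference was -0.40 on the log2(TPM + 1) scale and -1.68 on the log2(TPM + 0.1) scale.

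*Slc25a24* (chr3:109123149-109168457, plus strand), the main ATP-Mg/phosphate carrier in these cells, was at 124, 128 and 130 CPM in the normal group and at 103, 102 and 95.8 CPM in the DM1 group. The groups did not overlap, and the spread within each group was small. Its log2 fold change was -0.35 ± 0.08 (edgeR, adjusted p = 0.0182). The call was lost without any of the 3 normal libraries and without DM1 library 2, where the adjusted p lay between 0.0563 and 0.104, and the log2 fold change stayed between -0.37 and -0.32 over all 6 such fits. *Slc25a25*, the third carrier with a calcium-binding part, was at 8.77, 11.4 and 9.06 CPM in the normal and 9.63, 10.3 and 9.70 CPM in the DM1 group, which overlapped. Its log2 fold change was 0.02 ± 0.14 (edgeR, adjusted p = 0.938). It shares exonic bases on the opposite strand with *Naif1*, which had 453 to 572 counts per library against 633 to 738 for *Slc25a25*, so its value is uncertain without a known strand setting. *Slc25a41*, a short relative that lies 2056 bases from *Slc25a23* on the same strand of chromosome 17, had 0 counts. *Slc25a54* lies 6461 bases from *Slc25a24* on the same strand of chromosome 3 and had 14, 0 and 8 counts in the normal and 33, 20 and 22 counts in the DM1 group. Its groups did not overlap, but the log2 fold change of 1.85 ± 0.88 did not pass (edgeR, adjusted p = 0.194).

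The pyrimidine nucleotide carriers *Slc25a33* and *Slc25a36* take pyrimidine nucleotides into the matrix for the synthesis of mitochondrial DNA and RNA. *Slc25a33* (chr4:149744036-149774277, minus strand) was at 3.17, 2.77 and 2.58 CPM in the normal group and at 1.98, 1.82 and 1.58 CPM in the DM1 group. Every DM1 library lay below the normal libraries. Its log2 fold change was -0.66 ± 0.19 (edgeR, adjusted p = 0.0480), close to the threshold, and the call was lost in all 6 fits that left out 1 library, with adjusted p values from 0.0677 to 0.158. *Slc25a36* was at 60.6, 66.7 and 63.4 CPM in the normal and 64.6, 59.6 and 57.7 CPM in the DM1 group, which overlapped. Its log2 fold change was -0.07 ± 0.08 (edgeR, adjusted p = 0.641).

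The uncoupling-protein-like carriers *Slc25a14*, *Slc25a27* and *Slc25a30* resemble the proton-conducting uncoupling proteins. *Slc25a27* (chr17:43641891-43667214, minus strand), also known as UCP4 and best known from the brain, was at 10.6, 10.2 and 9.76 CPM in the normal group and at 13.6, 13.8 and 13.1 CPM in the DM1 group. The DM1 libraries lay above the normal libraries, with little spread in either group. It rose by 0.40 on the log2 scale (SE 0.106, edgeR, adjusted p = 0.0346). The call held without DM1 library 3 and was lost without any of the other 5 libraries, with adjusted p values from 0.0585 to 0.130. *Slc25a30*, the most abundant of the 3 in TPM, was at 66.8, 60.8 and 64.3 CPM in the normal and 69.1, 59.8 and 64.7 CPM in the DM1 group (log2 fold change 0.01 ± 0.08, edgeR, adjusted p = 0.946). *Slc25a14* had a log2 fold change of 0.25 ± 0.13 and did not pass (edgeR, adjusted p = 0.223).

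**Figure D3:**
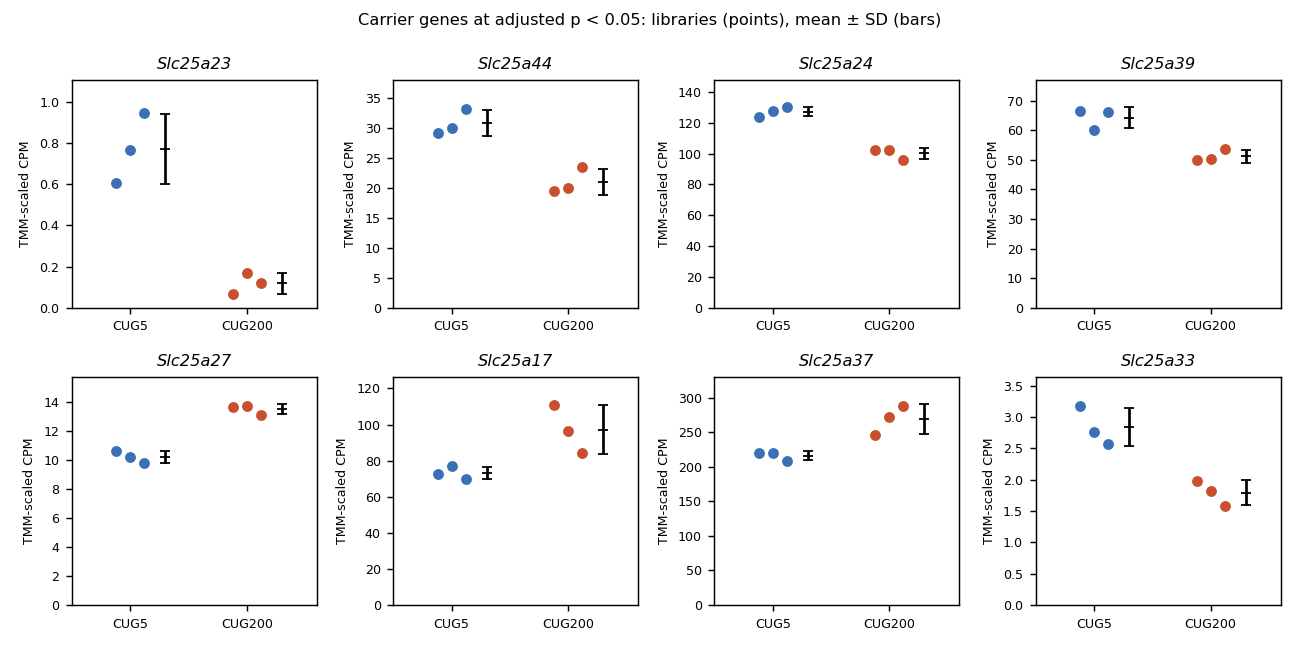
TMM-scaled CPM (y axis, from 0) of the 8 carriers at an adjusted p under 0.05, with 1 point per library (CUG5 blue, CUG200 red) and the mean ± SD of 3 libraries beside them. In all 8 panels the groups do not overlap, and the gap relative to the level is widest for Slc25a23.

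The mitoferrins *Slc25a37* and *Slc25a28* carry iron into the matrix for heme and iron-sulfur cluster synthesis. *Slc25a37* (chr14:69241848-69285112, minus strand), mitoferrin-1, was at 220, 220 and 209 CPM in the normal group and at 246, 273 and 289 CPM in the DM1 group. The DM1 libraries lay above the normal libraries in CPM, but the groups overlapped in TPM, at 63.7 ± 5.34 and 72.2 ± 13.0 (SD, n = 3 each). By log2 fold change it rose by 0.32 ± 0.09 (edgeR, adjusted p = 0.0421). Only the fit without DM1 library 1 kept the call among the 6 that left out a library, and the other 5 gave adjusted p values from 0.0534 to 0.154. *Slc25a28*, mitoferrin-2, was at 17.4, 17.6 and 16.8 CPM in the normal and at 21.6, 17.99 and 21.4 CPM in the DM1 group. Its groups also did not overlap in CPM but overlapped in TPM, and the log2 fold change of 0.23 ± 0.11 did not pass (edgeR, adjusted p = 0.184). Of 13 genes of heme and iron-sulfur synthesis 3 passed, and all 3 fell, where 8.73% of all genes tested fell. Among the 3 were *Abcb10* (-0.47), a partner of mitoferrin-1, and *Alas1* (-0.41), the first enzyme of heme synthesis.

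The glutathione carriers *Slc25a39* and *Slc25a40* bring glutathione into mitochondria. *Slc25a39* (chr11:102402985-102407946, minus strand), the fourth most abundant carrier by TPM, was at 66.4, 60.1 and 66.4 CPM in the normal group and at 49.9, 50.2 and 53.8 CPM in the DM1 group. The groups did not overlap in CPM but overlapped in TPM, at 125 ± 19.3 and 93.5 ± 14.9 (SD, n = 3 each). *Slc25a39* fell by 0.33 on the log2 scale (SE 0.0812, edgeR, adjusted p = 0.0289). Leaving out any library other than DM1 library 3 ended the call, with adjusted p values from 0.0550 to 0.139. *Slc25a40* was at 23.5, 23.8 and 21.7 CPM in the normal and 29.2, 26.9 and 22.8 CPM in the DM1 group, which overlapped (log2 fold change 0.19 ± 0.11, edgeR, adjusted p = 0.295).

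Among the amino acid carriers, *Slc25a44* (chr3:88410498-88425139, minus strand), which takes branched-chain amino acids into mitochondria, was at 29.1, 29.9 and 33.2 CPM in the normal group and at 19.4, 19.95 and 23.5 CPM in the DM1 group. Each DM1 library lay below each normal library, in TPM as well. It fell by 0.55 on the log2 scale (SE 0.109, edgeR, adjusted p = 0.0127), and the call was kept in 4 of the 6 fits that left out 1 library and lost without normal library 3 (adjusted p = 0.0671) and without DM1 library 2 (adjusted p = 0.0571). Of 6 tested genes of branched-chain amino acid breakdown, 0 passed by edgeR, against 15.9% of all genes in either direction, with a median log2 fold change of -0.08. At an unadjusted p under 0.05 there was 1 gene in each direction, and DESeq2 called 1 higher.

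The aspartate/glutamate carriers export aspartate in the malate-aspartate shuttle. *Slc25a12*, the form of muscle and brain, was at 59.3, 51.8 and 56.6 CPM in the normal and at 45.7, 44.7 and 49.9 CPM in the DM1 group. The groups did not overlap in CPM and overlapped in TPM, and the log2 fold change of -0.26 ± 0.09 did not pass (edgeR, adjusted p = 0.0815). It passed only without DM1 library 3 (adjusted p = 0.0391). *Slc25a13*, the form of liver, was at 3.09, 1.99 and 2.59 CPM and at 2.38, 2.61 and 2.99 CPM, which overlapped (log2 fold change 0.06 ± 0.21, edgeR, adjusted p = 0.896). Of the 4 enzymes of the shuttle, the aspartate aminotransferases *Got2* (-0.62) and *Got1* (-0.45) fell, and the malate dehydrogenases *Mdh1* (0.22) and *Mdh2* (-0.17) did not pass. Of all genes tested, 8.73% fell.

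The glutamate carriers *Slc25a18* and *Slc25a22* did not pass. *Slc25a22* was at 14.6, 13.7 and 12.1 CPM in the normal and 9.53, 14.97 and 14.6 CPM in the DM1 group, which overlapped (log2 fold change -0.05 ± 0.18, edgeR, adjusted p = 0.893). *Slc25a18* was at 1.02, 0.602 and 0.873 CPM and at 0.336, 0.758 and 0.421 CPM, which overlapped as well (log2 fold change -0.72 ± 0.40, edgeR, adjusted p = 0.270). *Slc25a18* shares exonic bases on the opposite strand with *Atp6v1e1*, which had 11721 to 17582 counts per library, so without a known strand setting its few counts are uncertain. The ornithine carrier *Slc25a15* was at 5.12, 4.02 and 4.28 CPM and at 4.54, 3.66 and 2.81 CPM. These CPM values overlapped (log2 fold change -0.28 ± 0.21, edgeR, adjusted p = 0.398). In TPM, *Slc25a15* did not overlap, at 2.15 ± 0.408 in the normal and 1.54 ± 0.177 in the DM1 group (SD, n = 3 each). Its relative *Slc25a2*, with 1, 0 and 4 counts in the normal and 4, 10 and 21 counts in the DM1 group, was removed by the filter on low counts. The basic amino acid carrier *Slc25a29* (-0.35) and the glycine carrier *Slc25a38* (-0.16) did not pass.

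Of the 7 cofactor carriers, 1 passed by edgeR and rose. *Slc25a17* (chr15:81318911-81360812, minus strand), which carries coenzyme A and other nucleotide cofactors across the peroxisomal membrane, was at 72.4, 77.0 and 70.1 CPM in the normal group and at 111, 96.7 and 84.2 CPM in the DM1 group. The groups did not overlap, and the DM1 libraries were spread more widely. The log2 fold change was 0.41 ± 0.11 (edgeR, adjusted p = 0.0349), and the call was kept without DM1 library 1 (0.32) or DM1 library 3 (0.50) and lost without any of the other 4 libraries, with adjusted p values from 0.0817 to 0.129. *Slc25a32*, the folate carrier, was at 31.0, 28.7 and 29.1 CPM and at 41.0, 37.0 and 33.8 CPM. It did not overlap between the groups and lay just outside the threshold, at a log2 fold change of 0.33 ± 0.10 (edgeR, adjusted p = 0.0510). It passed in 6 of 12 other settings, among them DESeq2 (adjusted p = 0.0235), edgeR with DESeq2 size factors (0.0497), edgeR with at least 10 counts in every library (0.0409) and edgeR on counts divided by 4 (0.0381). It also passed when DM1 library 3 was left out (edgeR, adjusted p = 0.0193) and in none of the other 5 fits that left out a library.

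*Slc25a26*, the carrier of S-adenosylmethionine, was at 4.23, 3.45 and 3.18 CPM and at 3.04, 1.87 and 2.19 CPM. Its groups did not overlap, but the log2 fold change of -0.61 ± 0.23 did not pass (edgeR, adjusted p = 0.102). It shares exonic bases on the opposite strand with *Lrig1*, which had 3058 to 4396 counts in the normal and 1886 to 2486 counts in the DM1 libraries, so its counts are uncertain without a known strand setting. *Slc25a42*, a carrier of coenzyme A (-0.37), and *Slc25a16* (-0.24) did not pass. *Slc25a51* was looked at after its values were seen. It had 3750, 2404 and 3075 counts in the normal group and 3208, 824 and 1069 counts in the DM1 group, and DM1 library 1 stood with the normal libraries. The deposited TPM values did not follow the counts, with 20.5, 11.9 and 25.3 TPM in DM1 libraries 1, 2 and 3 and 19.1 to 23.9 TPM in the normal libraries. The log2 fold change in counts was -0.85 ± 0.52 (edgeR, adjusted p = 0.351), and without DM1 library 1 it was -1.61 (edgeR, adjusted p = 0.00227).

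Of the 3 tested carriers of di- and tricarboxylates 0 passed by edgeR or by DESeq2, and 1, *Slc25a10*, was lower at an unadjusted p under 0.05, while *Slc25a20*, the carrier of acylcarnitines, passed by none of these. *Slc25a11*, the most abundant dicarboxylate carrier, was at 76.9, 72.8 and 69.3 CPM in the normal and 74.7, 65.8 and 69.4 CPM in the DM1 group, which overlapped (log2 fold change -0.06 ± 0.08, edgeR, adjusted p = 0.674). It shares exonic bases on the opposite strand with *Rnf167*, which had 896 to 1290 counts per library against 4475 to 6471 for *Slc25a11*. *Slc25a1*, which exports citrate for lipid synthesis, had a log2 fold change of 0.21 ± 0.20 and *Slc25a10*, the malate and succinate carrier, one of -0.27 ± 0.11. *Slc25a20*, which brings fatty acids into the matrix for oxidation, was at 25.4, 26.2 and 25.04 CPM and at 28.1, 26.4 and 25.5 CPM, which overlapped (log2 fold change 0.06 ± 0.09, edgeR, adjusted p = 0.706).

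Of the 9 carriers with no substrate assigned here 8 were tested, and 0 passed by edgeR or by DESeq2, with 1 at an unadjusted p under 0.05. *Slc25a46* was the most abundant of them in TPM. It was at 84.4, 93.7 and 91.3 CPM in the normal and 96.8, 89.7 and 72.0 CPM in the DM1 group. These CPM values overlapped (log2 fold change -0.06 ± 0.11, edgeR, adjusted p = 0.779). In TPM the groups did not overlap, at 34.7 ± 0.870 in the normal and 30.4 ± 1.71 in the DM1 group (SD, n = 3 each). *Slc25a34* had 14, 19 and 11 counts in the normal and 5, 0 and 3 counts in the DM1 group, which did not overlap, and its log2 fold change of -2.43 ± 0.96 did not pass (edgeR, adjusted p = 0.126). *Slc25a43*, *Slc25a47*, *Slc25a53* and *Slc25a35* had log2 fold changes between 0.18 and 0.38, and *Slc25a45* of -0.14. The counts of *Slc25a35*, 516 to 919 per library, are uncertain in the same way as those of *Slc25a26*, since it shares exonic bases with *Rangrf* on the opposite strand, at 548 to 1105 counts. *Slc25a47* and *Slc25a29* lie 162 bases apart on opposite strands of chromosome 12, with log2 fold changes of 0.38 and -0.35. *Slc25a48* had 6 counts in DM1 library 1 and 0 in the others.

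Summed over a substrate class in TPM, 2 of the 13 classes did not overlap between the groups. The ATP-Mg/phosphate carriers summed to 71.6, 69.9 and 67.8 TPM in normal libraries 1, 2 and 3 and to 48.1, 52.0 and 54.5 TPM in the DM1 libraries, and *Slc25a24* made up 89.9% and 88.1% of the sum of the 3 measured carriers on average. The phosphate class holds *Slc25a3* alone, which was described with the ADP/ATP exchangers. The ADP/ATP exchangers summed to 622 ± 81.9 TPM in the normal and 650 ± 76.5 TPM in the DM1 group (SD, n = 3 each), which overlapped. The sums of the amino acid carriers other than those of aspartate, at 46.2 ± 4.68 and 36.6 ± 5.54 TPM, overlapped as well. The number of classes that do not overlap was 5 with TPM rescaled without the mitochondrial genome and 6 with CPM per kilobase of merged exons, and it was 4 without normal library 3 and 8 without DM1 library 3.

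The balance within pairs of related carriers was measured as a share of their summed TPM. *Slc25a33* made up 7.87%, 6.96% and 7.29% of the pyrimidine nucleotide pair in normal libraries 1, 2 and 3 and 4.91%, 4.19% and 4.04% in the DM1 libraries, so the groups did not overlap. *Slc25a23* made up 0.556 ± 0.126% of the ATP-Mg/phosphate carriers in the normal group and 0.0993 ± 0.0472% in the DM1 group (SD, n = 3 each), which did not overlap either. In the other 7 comparisons the groups overlapped. *Slc25a4* made up 40.7 ± 0.507% of the pair with *Slc25a5* in the normal group and 41.6 ± 0.995% in the DM1 group. *Slc25a12* held 92.2 ± 1.53% and 91.0 ± 1.29% of its pair with *Slc25a13*, and *Slc25a39* held 89.3 ± 1.57% and 85.8 ± 2.66% of its pair with *Slc25a40*. Mitoferrin-1 held 82.0 ± 0.761% and 83.0 ± 2.31% of the mitoferrins. Over the fits that left out 1 library between 3 and 5 of the 9 shares did not overlap, with 5 without normal library 2 or DM1 library 1 and 4 without DM1 library 3.

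**Figure D4:**
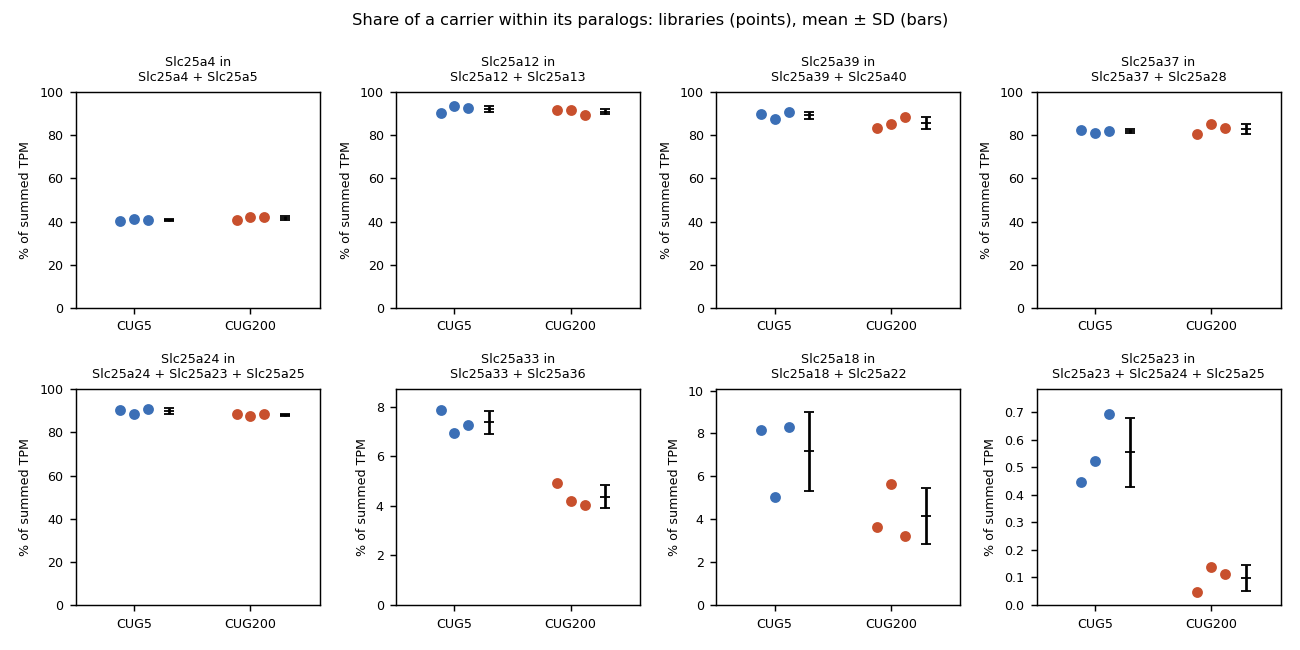
Share of a carrier in the summed TPM of its paralogs (y axis, percent; the scale differs between panels and starts at 0), with 1 point per library (CUG5 blue, CUG200 red) and the mean ± SD of 3 libraries. The groups do not overlap for Slc25a33 (7.37% against 4.38%) and Slc25a23 (0.556% against 0.0993%), and they overlap in the other 6 panels.

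Other genes named elsewhere but built on the same protein fold were measured as well. *Ucp2*, an uncoupling protein, was at 40.7, 39.6 and 41.8 CPM in the normal group and at 28.2, 30.9 and 31.9 CPM in the DM1 group, which did not overlap. It fell by 0.42 on the log2 scale (SE 0.0864, edgeR, adjusted p = 0.0142). *Ucp3*, the uncoupling protein of skeletal muscle, was at 0.811 ± 0.168 and 0.459 ± 0.243 CPM (SD, n = 3 each) and did not pass (log2 fold change -0.81, edgeR, adjusted p = 0.287). *Ucp1* had 0 counts. *Mtch1* (0.26, adjusted p = 0.0559) and *Mtch2* (0.13, adjusted p = 0.455), relatives in the outer membrane, did not pass by edgeR. In these tables *Mcart1* and *Mcart6* go under the names *Slc25a51* and *Slc25a53*.

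Carriers reach the inner membrane through the TOM pore and the TIM22 pathway. Of 16 genes of this import route, 2 rose and 4 fell, where 7.13% and 8.73% of all genes tested did so. *Tomm7* (0.55), a small subunit of the TOM complex, and *Timm10b* (0.48), a small chaperone of the intermembrane space, rose. *Tomm40* (-0.45), the pore itself, *Tomm6* (-0.59), *Timm29* (-0.33) and *Agk* (-0.42), both subunits of TIM22, fell. Of the 5 genes of the porins and the pyruvate carrier, 0 passed by edgeR, by DESeq2 or at an unadjusted p under 0.05, and *Vdac1*, the porin with the highest CPM, was at 334 ± 13.4 and 355 ± 8.84 CPM (SD, n = 3 each).

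Over 12 lists of genes that work with the carriers, 113 of 115 genes were tested, 8 rose and 23 fell, and the median log2 fold change was -0.05, against 7.13%, 8.73% and 0.02 for all genes tested. Without 1 library, 2 to 15 rose and 6 to 26 fell, with 2 and 7 without normal library 1, 3 and 7 without normal library 2, 3 and 6 without normal library 3, 3 and 8 without DM1 library 2, and 15 and 26 without DM1 library 3. The share of all genes that passed moved as well. It was 5.18% to 7.25% without normal library 1, 2 or 3 or DM1 library 2, and 19.2% without DM1 library 3, against 15.9% with all libraries. The lowest median, -0.86, was that of the creatine kinases and their partners. Of 4 tested genes there, 3 fell, namely *Ckm* (-0.84), which is also a myotube marker, *Ckb* (-0.87) and *Ckmt2* (-1.12), the mitochondrial creatine kinase that takes up the ATP exported by *Slc25a4*. In the citric acid cycle 4 of 18 genes passed and fell, among them *Cs* (-0.45), citrate synthase, and *Dlst* (-0.35), a subunit of oxoglutarate dehydrogenase. Of 16 genes of ATP synthase 3 rose, namely *Atpif1* (0.54), its inhibitor, and the small subunits *Atp5k* (0.44) and *Atp5l* (0.36), and 1 fell, the catalytic subunit *Atp5b* (-0.33).

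Of all genes tested, beside which this list and the lists below are set, 7.13% rose and 8.73% fell, 15.9% in either direction. Of 8 genes of mitochondrial calcium handling 2 passed, and both *Letm1* (-0.62) and *Slc8b1* (-0.41), the sodium/calcium exchanger, fell. Of 6 genes listed for the carnitine shuttle, *Cpt1c* rose (0.55), *Crat* fell (-0.42) and the others did not pass. For the supply of nucleotides to mitochondrial DNA, *Dguok*, deoxyguanosine kinase, rose (0.47) and *Polrmt*, the mitochondrial RNA polymerase, fell (-0.47) among 9 genes. In glycine and one-carbon metabolism, *Amt* rose (0.64), and *Gldc* (-0.68) and *Shmt2* (-0.32) fell among 9 genes, while *Slc25a38* and *Slc25a32*, the carriers of that pathway, did not pass by edgeR (DESeq2 gave *Slc25a32* an adjusted p of 0.0235).

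**Figure D5:**
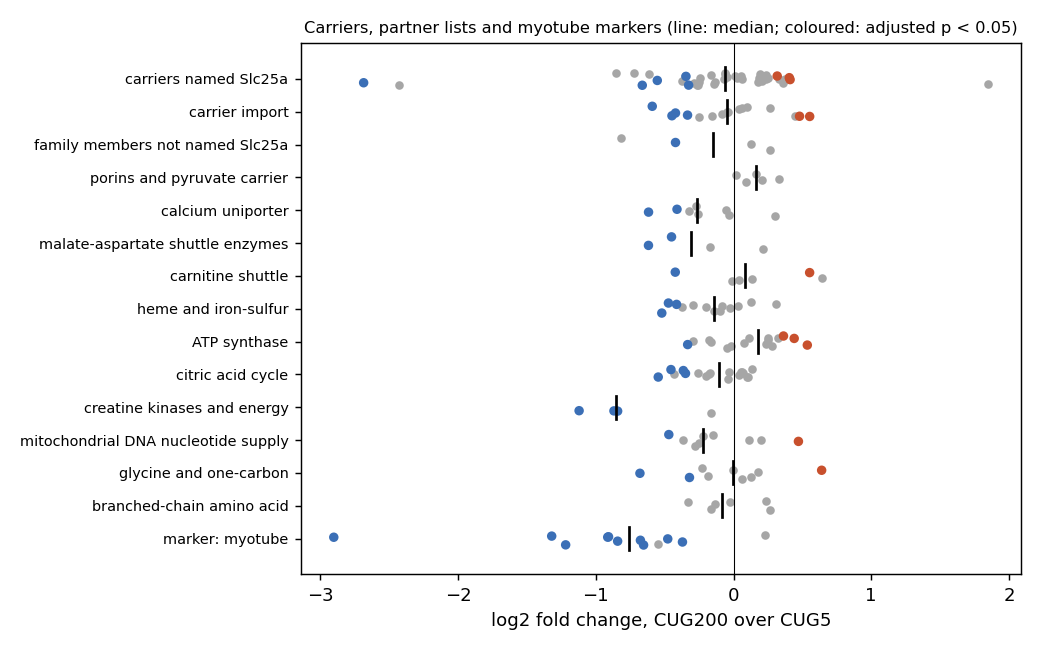
Log2 fold change of CUG200 over CUG5 (x axis) for the tested carriers, their relatives not named Slc25a, 12 lists of genes that work with the carriers, and the myotube markers. Each point is a gene, the black line is the median, and red and blue mark genes that rose or fell at an adjusted p under 0.05. The carriers have a median of -0.06, and the myotube markers of -0.76.

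Promoters, from 250 bases before to 50 bases after the start, were at hand in RefSeq (GRCm38.p6) for 36 of the 47 carriers. The E-box CAGCTG, a motif bound by myogenic factors and palindromic on both strands, was found in 4 of these (11.1%) and in 18.3% of the promoters of all 27025 genes. The motif of the nuclear respiratory factor NRF-1, searched on both strands, was found in 2 (5.56%) and in 5.19% of all. The motif TNAAGGTCA of the estrogen-related receptors, on either strand, was found in 0 carriers and in 1.43% of all. A match is a description of letters and not a site. Of the 8 carriers that passed the test, *Slc25a24* held an E-box, 126 bases before its start, shown in capitals with its flanks.
Slc25a24 promoter (chr3:109123011-109123040, plus strand): cgcccagagcagCAGCTGggcgaccacacc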

How the data were processed

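Total RNA of C2C12 cells at differentiation day 4 was sequenced in 3 normal (CUG5) and 3 DM1 (CUG200) libraries, with groups and replicate numbers from the sample labels. The authors trimmed the reads with Trim Galore, aligned them to GRCm38 with HISAT2 and quantified them with StringTie, whose versions are not given in the sources used here. The deposited counts per gene are not normalized, and the authors deposited for each library a table with the coverage signal and the TPM of each gene, which StringTie scales for length and library size. Coverage times length divided by 75 gave the deposited count within 1 in all libraries for 98.7% of 6334 single-transcript genes. The strand setting of the counting is not given in the sources used here. All 6 count columns were used. Rows of 2 carriers share exonic bases with a gene on the same strand (Slc25a47 with Mir345, Slc25a51 with Gm25692), and 11 with a gene on the opposite strand; these other genes had at most 8 counts beside Slc25a23, Slc25a33 and Slc25a37.

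Genes were filtered with filterByExpr (minimum count 10), scaled by TMM (factors 0.940 to 1.05) and tested with the robust quasi-likelihood fit of edgeR without covariates, adjusting p after Benjamini and Hochberg over 19005 genes, at an adjusted p under 0.05, and for both cutoffs also an absolute log2 fold change over 1. The standard error is the log2 fold change divided by the square root of the F statistic. Shares and class sums use the deposited TPM and have no test. No pair of libraries of a group differed by as little as sampling noise (chi-square per degree of freedom 39.5 to 147). Totals of 61707889 to 80957325 counts, or 15426972 to 20239331 fragments at 4 counts each, set the precision, and intervals cover counting error only.

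The members, their substrate classes, the gene lists, the tests and the rule on which genes to name were chosen with earlier results of these data known. Named with values in every library were carriers past both cutoffs, those at an adjusted p under 0.05, the carrier with the highest mean TPM in each class and the members of fixed pairs; from each list of partners, up to 3 genes per direction with the smallest p among those that passed; and all relatives not named Slc25a. Agk, Mdh1, Mdh2 and Vdac1 were named outside the rule for partners. Slc25a32, Slc25a34, Slc25a54, Slc25a26, Slc25a28 and Slc25a51 were added after their values were seen. The rule on fixed pairs also covers Slc25a28. The values of a few genes are not reported here, though they are part of the counts. The test was also run on simulated data, and the outcome is not reported here. Coding windows and protein identities were computed from GENCODE M21 with Biopython 1.88, and promoters came from RefSeq. Alternatives were DESeq2, its size factors, library totals alone or without the mitochondrial genome, other filters, a block for the replicate number, edgeR without robust estimation, limma-trend on log2 of TPM with 1 or 0.1 added, counts divided by 4, sums over genes sharing exons, glmTreat and each library left out in turn. A CPM per kilobase of merged exons was chosen after seeing the data. Python 3.11.15 (with scipy 1.17.1, numpy 2.4.6, matplotlib 3.10 and pandas 2.3.3) and R 4.3.3 (with limma 3.58.1, DESeq2 1.42.0 and edgeR 4.0.16) were used.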

Additional observations from a re-analysis of the deposited data

How the results depend on the processing

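Apart from glmTreat and fits without a library, Slc25a23 stayed lower and past the adjusted threshold in all 11 settings that could test it. Slc25a24 and Slc25a44 did so in all 12. The other 5 calls were lost with both limma fits, and those of Slc25a39, Slc25a27 and Slc25a37 also with library totals alone, of Slc25a27, Slc25a33 and Slc25a37 with no filter beyond 1 count, of Slc25a37 without robust estimation and of Slc25a33 without the mitochondrial genome. The count of carriers that rose, 3, was 1 with library totals alone, with no filter beyond 1 count and with the replicate block, and 0 with limma-trend on log2(TPM + 1) and on log2(TPM + 0.1), and 0 to 3 over the fits that left out 1 library. The count that fell, 5, was 3 with both limma fits and 1 to 5 when 1 library was left out. The count that fell past both cutoffs, 1, was 0 with at least 10 counts in every library, because Slc25a23 is then not tested. It was 0 with limma-trend on log2(TPM + 1), where the pseudocount exceeds the TPM of Slc25a23. The log2 difference of Slc25a23 was -0.40 there, -1.68 with log2(TPM + 0.1) and -2.69 in edgeR. With glmTreat, which tests for an absolute log2 fold change over 1 and not over 0, the count was 0, and 0.021% of all genes passed. It was 1 to 2 when 1 library was left out. The cause of the other shifts was not tested, but limma on TPM moved the median of all genes to -0.06 (pseudocount 1) and -0.09 (pseudocount 0.1) and called 6.54% and 6.76% of all genes.

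The 2 shares that do not overlap became 3 to 5, and the 2 class sums 2 to 8, when 1 library was left out. The class sums became 6 with CPM per kilobase of merged exons and 5 with TPM without the mitochondrial genome. Of the partner genes, 1 rose with either limma fit (8 in the main comparison), and 10 (pseudocount 1) and 11 (pseudocount 0.1) fell (23 in the main comparison), against 2 to 15 and 6 to 26 when 1 library was left out. The share of all genes that passed ran from 5.18% to 19.2% over the fits that left out 1 library.

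Log2 fold changes near 0 changed sign in carriers that never passed: Slc25a25 with library totals alone (-0.0006) and with limma (-0.10 and -0.12), Slc25a30 likewise (-0.0144, -0.13 and -0.14), Slc25a20 with limma (-0.0381 and -0.0395) and Slc25a36 with limma (0.0103 and 0.0107). With 1 library left out, the value ran from -0.10 to 0.22 for Slc25a13, from -0.16 to 0.15 for Slc25a22, from -0.0487 to 0.14 for Slc25a25, from -0.0265 to 0.0639 for Slc25a30 and from -0.14 to 0.0527 for Slc25a46. Of the values recomputed for single carriers, 385 kept their direction and side of the threshold, 52 lost the threshold, 10 gained it and 20 changed sign.

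With the replicate number as a block, Slc25a27, Slc25a33 and Slc25a37 lost their call, leaving 1 carrier that rose and 4 that fell. Libraries with the same number did not deviate together (correlations 0.0675, 0.0222 and 0.0263 for numbers 1, 2 and 3), so the numbers were not taken to pair the libraries. The planned length from counts per coverage was not run. The few fragments of Slc25a23, Slc25a34, Slc25a54 and Slc25a2 limit the precision of their values.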
